A study of Homo sapiens with 8 samples.

Results

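The nuclear-encoded genes of the respiratory chain were followed in RNA-seq libraries of Hep3B, a hepatocellular carcinoma cell line, in 4 conditions of 2 libraries each. Members were chosen by symbol alone: NDUF names with A, B, C, S or V and a digit, SDHA to SDHD, UQCR names, CYC1, COX4 to COX8 names, and ATP5 names. Of 88 matching symbols, 2 pseudogenes and 3 antisense or divergent RNAs were left out, and 83 genes stayed, out of 16040 genes in one table (Hep3B and SOX4 knockout) and 14955 in another (control and STAT6 siRNA), called here the knockout and siRNA tables. All 83 members had a row in both tables. They comprised 75 subunits and 8 related genes that match the pattern without being a separate subunit (the readthrough genes NDUFC2-KCTD14 and ATP5J2-PTCD1, the copies UQCRHL and ATP5L2, and NDUFA4L2, COX7A2L, ATP5S and ATP5SL). Complex I held 37 members, complex II 4, complex III 10, complex IV 13 and complex V 19. NDUFA4 was counted in complex IV, where the protein is now placed.

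The study asked which genes depend on the transcription factors SOX4 and STAT6. The knockout table compared unmodified Hep3B with Hep3B cells labelled SOX4 knockout (the knockout-labelled libraries), which were made with CRISPR/Cas9 and grown with puromycin. The study describes more than a single knockout line, and which line gave which library is not stated. The siRNA table compared Hep3B cells transfected with a control siRNA and with a STAT6 siRNA, both of unmodified genotype. Nothing in the labels says that the 2 libraries of a group came from separate cultures, so p-values measure only the spread between these libraries.

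Library totals ranged from 16266282 to 25353113 expected counts. Levels of STAT6 RNA were 32.0 and 13.2 CPM for Hep3B against 2.76 and 2.20 CPM in the knockout-labelled libraries, and 42.5 and 31.4 CPM with control siRNA and 9.92 and 5.98 with STAT6 siRNA. SOX4 RNA was 799 and 266 CPM in Hep3B and 298 and 302 CPM in the knockout-labelled libraries (adjusted p = 0.372, edgeR), so the ranges overlapped and SOX4 RNA did not check that label. All 12 hepatocyte markers examined were present in both tables. Of 12 markers of fibroblasts, endothelium, leukocytes and bile duct, 4 had no row in each table, among them DCN, VWF and CDH5 in both. The summed level of these 12 lay between 673 and 809 CPM in Hep3B and between 1030 and 1300 CPM in the knockout-labelled libraries, and the part of this difference in the results below was not tested. KRT19 and EPCAM made up most of the sum. Among the markers with higher values in both knockout-labelled libraries, LYZ was at 46.5 and 6.07 CPM against 113 and 344 CPM, KRT19 at 322 and 232 CPM against 425 and 513 CPM, and CD68 at 43.0 and 28.0 CPM against 72.9 and 92.4 CPM, whereas EPCAM overlapped. The summed leukocyte markers ranged from 34.3 to 89.5 CPM in Hep3B and from 186 to 436 CPM in the knockout-labelled libraries. In the siRNA table the summed level of all 12 markers lay between 906 and 1200 CPM with control siRNA and between 989 and 1660 CPM with STAT6 siRNA. In bulk RNA, fewer cells of a kind and less RNA per cell cannot be told apart. CPM is a read count scaled to library size, here with TMM factors and within a table only.

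The respiratory chain moves electrons from NADH and succinate to oxygen in the inner mitochondrial membrane and stores the energy as a proton gradient. Complex I oxidises NADH and complex II oxidises succinate, both passing electrons to ubiquinone. Complex III hands them on to cytochrome c, complex IV passes them from there to oxygen, and complex V uses the gradient to make ATP. The catalytic centre of complex I sits in core subunits, and accessory subunits surround and stabilise it. Part of complexes I, III, IV and V is encoded by mitochondrial DNA. Neither table had a row on the mitochondrial chromosome, so the mitochondrially encoded partners were not analysed here. COX4I2, COX6A2, COX6B2, COX7A1, COX7B2 and COX8C, the tissue-specific complex IV isoforms, had no row in either table.

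Promoters of 5 members are shown, picked after their values were seen from genes at or near the ends of the ranking in the knockout comparison. Other genes near these ends, among them NDUFB1, NDUFA7, ATP5G1 and NDUFB9, are not shown. Motif matches among the 5 therefore do not describe the ends of the ranking. Each sequence is the 250 bases before the RefSeq start on GRCh38.p14, read 5′ to 3′ on the strand of the gene. Capitals mark a match to the motifs of NRF1 (GCGCA and GCGC with any base between), ETS factors (CCGGAAGT) or YY1 (AANATGGCG) on either strand. NDUFV1 lies on the plus strand at chr11:67606686-67606935, NDUFS8 on the plus strand at chr11:68030431-68030680, UQCRC1 on the minus strand at chr3:48609647-48609896, COX8A on the plus strand at chr11:63974370-63974619 and COX7B on the plus strand at chrX:77899218-77899467.
NDUFV1: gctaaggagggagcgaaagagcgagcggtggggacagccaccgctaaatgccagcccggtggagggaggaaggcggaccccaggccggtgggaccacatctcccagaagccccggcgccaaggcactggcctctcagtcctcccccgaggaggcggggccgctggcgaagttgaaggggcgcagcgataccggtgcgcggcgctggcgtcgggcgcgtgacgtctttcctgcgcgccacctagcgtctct
NDUFS8: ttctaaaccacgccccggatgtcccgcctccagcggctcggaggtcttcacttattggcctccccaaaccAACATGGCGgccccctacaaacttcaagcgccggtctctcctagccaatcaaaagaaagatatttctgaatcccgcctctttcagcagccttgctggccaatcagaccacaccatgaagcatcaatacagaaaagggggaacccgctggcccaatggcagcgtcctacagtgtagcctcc
UQCRC1: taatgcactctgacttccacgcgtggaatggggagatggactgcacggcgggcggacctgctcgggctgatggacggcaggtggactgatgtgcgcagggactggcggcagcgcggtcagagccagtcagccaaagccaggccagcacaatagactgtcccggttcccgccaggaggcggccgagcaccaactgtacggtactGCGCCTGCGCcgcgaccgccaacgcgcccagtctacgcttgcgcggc
COX8A: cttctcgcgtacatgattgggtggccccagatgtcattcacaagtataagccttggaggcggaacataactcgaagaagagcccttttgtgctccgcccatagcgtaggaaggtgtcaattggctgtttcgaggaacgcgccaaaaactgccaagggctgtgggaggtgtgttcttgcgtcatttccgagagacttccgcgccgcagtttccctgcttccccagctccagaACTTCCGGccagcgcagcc
COX7B: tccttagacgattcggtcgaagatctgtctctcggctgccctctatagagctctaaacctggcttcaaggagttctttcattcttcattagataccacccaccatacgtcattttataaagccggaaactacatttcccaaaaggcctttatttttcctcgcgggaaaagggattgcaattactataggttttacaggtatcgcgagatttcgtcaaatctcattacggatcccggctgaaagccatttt
NDUFS8 carries the YY1 letters, UQCRC1 the NRF1 letters and COX8A the ETS letters. The windows of NDUFV1 and COX7B hold no match to these 3 motifs.

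A promoter from RefSeq was matched for 66 of the 83 members, here over 250 bases before to 50 after the start. The NRF1 motif was in 15 of the 66 (22.7%), against 6.28% of all 27305 promoters and 11.3% of the 10691 promoters of genes tested in the knockout table. The YY1 motif was in 16 members (24.2%, against 3.37% and 6.6%), and the ETS motif in 9 (13.6%, against 4.44% and 8.41%). A SOX motif (AACAAAG) was in 3 members (4.55%, against 5.28% and 3.37%), and a STAT6 motif (TTC and GAA with any 4 bases between) in 2 (3.03%, against 6.37% and 4.6%). Members with and without the NRF1 letters had median log2 fold changes of 0.26 and 0.29 in the knockout comparison. For YY1 the medians were 0.37 and 0.26, and for ETS they were 0.45 and 0.26. The few members with the SOX or the STAT6 letters had lower medians than those without, 0.16 against 0.28 for SOX and -0.07 against 0.28 for STAT6. The 2 with the STAT6 letters were COX7B and UQCR10, at log2 fold changes of -0.59 and 0.44. These matches describe letters in a window and are not sites of binding.

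In the knockout-labelled libraries, most respiratory chain genes lay somewhat above their level in Hep3B, by a small margin, and 1 of them passed the test. NDUFV1, the core complex I subunit that holds the flavin and takes up electrons from NADH, rose 2.83-fold. All 7 nuclear core subunits of complex I lay above Hep3B in both libraries. NDUFB9, an accessory subunit of complex I, and COX7B, a small subunit of complex IV, had the lowest fold changes in their complexes. In the same libraries TFAM and TWNK, which package and unwind mitochondrial DNA, lay below Hep3B without passing the test.

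NDUFV1 was at 83.9 and 75.8 CPM in Hep3B and at 203 and 249 CPM in the knockout-labelled libraries. The ranges were far apart relative to the gap between libraries of a group. Its log2 fold change was 1.50 with a standard error of 0.34 (adjusted p = 0.0475, edgeR quasi-likelihood test). Of 82 members tested, it was the only member called, beside 5.89% of all 14415 genes, 4.5% of them higher and 1.39% lower. Without adjustment, 11 members had a p-value below 0.05, 10 of them higher, beside 26% of all genes. ATP5L2, at 0.317 to 0.606 CPM, was the member that did not pass the filter on low counts. Of the 83 members, 38 overlap an annotated gene on the opposite strand (GENCODE), NDUFV1 and NDUFS8 not among them. The call of NDUFV1 is close to the threshold, and it was lost without Hep3B library 2 and without either knockout-labelled library. It was also lost without the filter, and with offsets for GC content and length (log2 fold change 0.91, adjusted p = 0.126).

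As a group the members leaned upward by a small amount. Of the 82 tested, 65 had a log2 fold change above 0 (79.3%, against 50.4% of all genes), and the median was 0.27 against 0.01 for all genes. Both knockout-labelled libraries lay above both Hep3B libraries for 49 members (59.8%, against 30.6% of all genes). They lay below both for 7 members (8.54%, against 27.4%). GC content of the transcripts moved with the fold change, with Pearson's r = 0.27 and Spearman's rho = 0.28 over 82 members that share the same 4 libraries. Offsets for GC content and length lowered the median of all genes to -0.15 and that of the members to 0.06, so the members stayed 0.21 above all genes, with 52 of 82 above 0 (63.4%, against 42.9%). No test of the group was made.

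**Figure D1:**
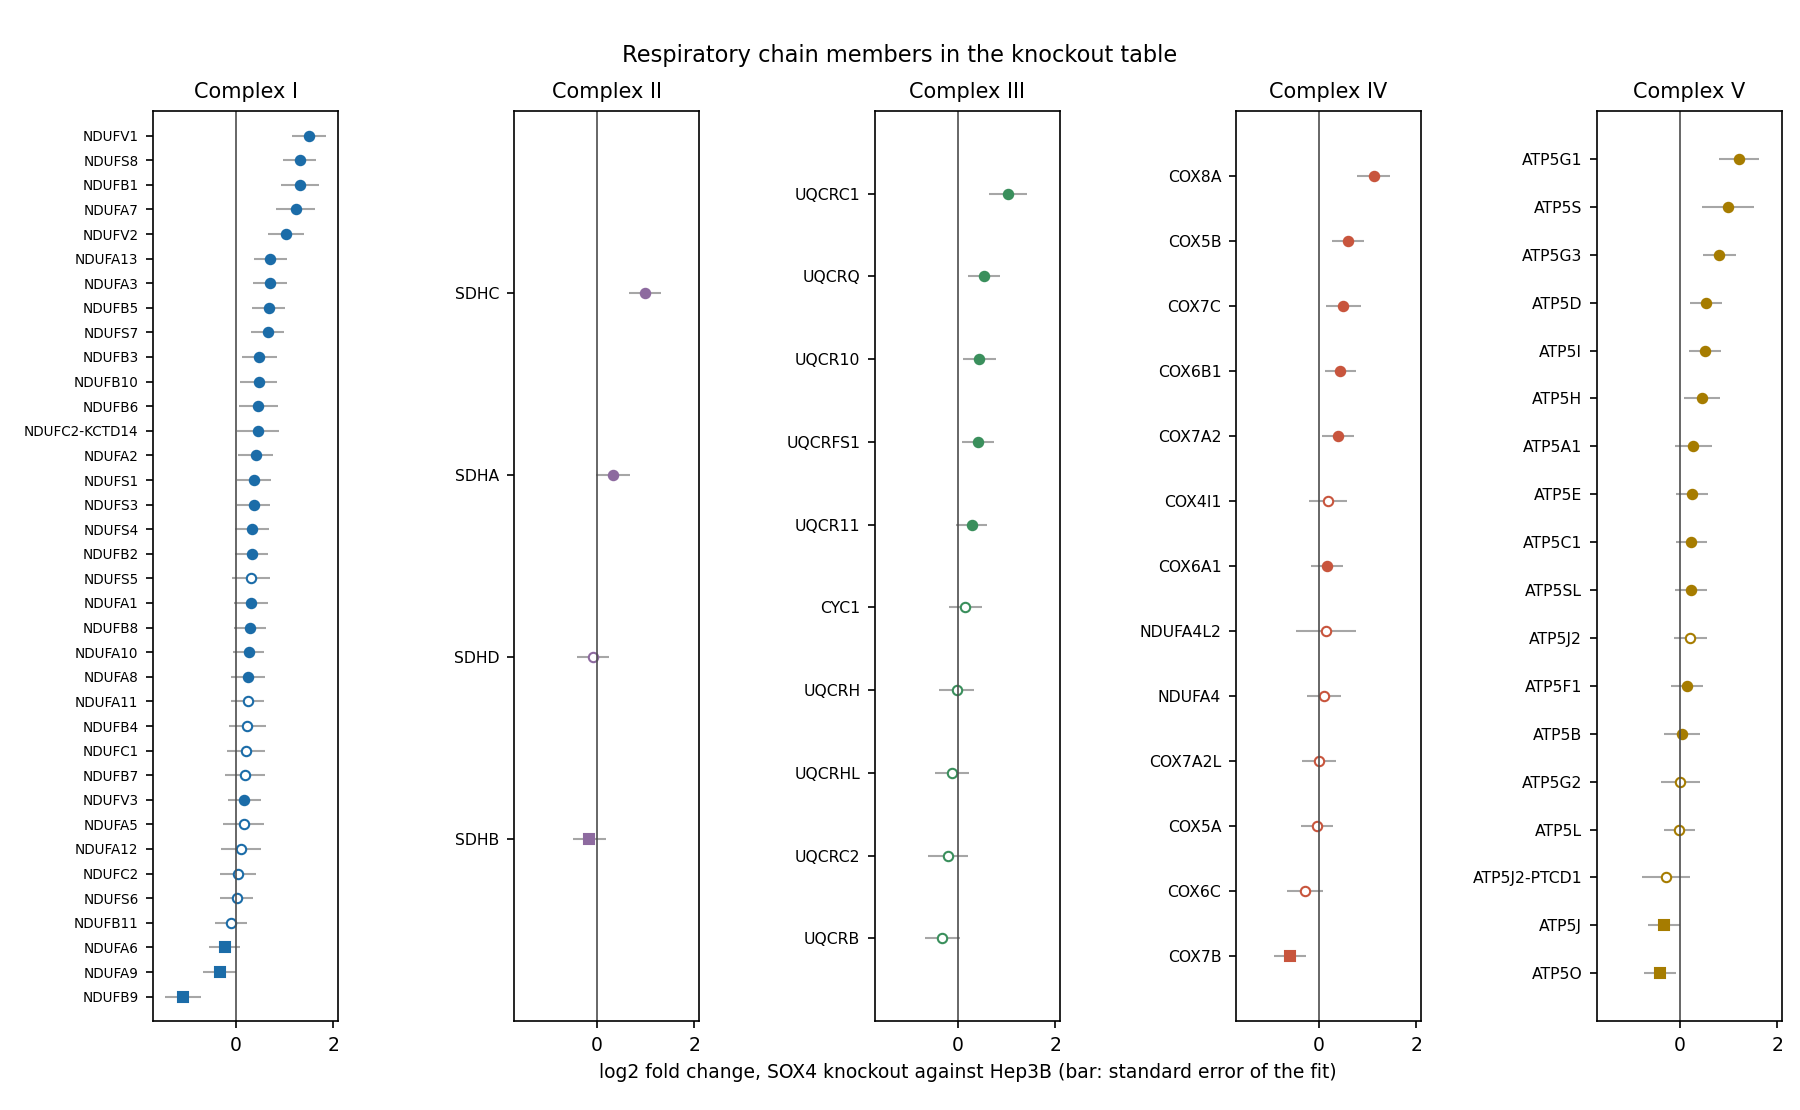
Log2 fold change of the tested members, 1 of them not shown, knockout-labelled libraries against Hep3B, one panel per complex, with bars for the standard error of the edgeR fit. Filled circles mark members with both knockout libraries above both Hep3B libraries, filled squares those with both below, and open circles those that overlap; values run from -1.08 for NDUFB9 to 1.50 for NDUFV1.

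Complex I had the highest median log2 fold change, 0.32 over 37 members, 33 of them above 0. Its 7 core subunits had a median of 0.65, and both knockout-labelled libraries lay above both Hep3B libraries for all 7. With offsets for GC content and length the median was 0.41 and 6 of the 7 lay above 0, NDUFS7 being at -0.12. The summed level of the core subunits was 557 and 469 CPM in Hep3B and 864 and 1023 CPM in the knockout-labelled libraries, a ratio of means of 1.84. The 29 accessory subunits summed to 1495 and 1673 CPM against 1678 and 1819 CPM, a ratio of 1.10, with a median log2 fold change of 0.27. A large part of the core rise lay in NDUFV1 and NDUFS8, whose mean levels went from 79.8 to 226 CPM and from 86.9 to 216 CPM. The accessory sum held NDUFB9, which went from a mean of 212 to 100 CPM. Whether core and accessory subunits differ was not tested.

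Among the core subunits, NDUFS8, which carries iron-sulfur clusters, followed NDUFV1. It was at 90.4 and 83.4 CPM in Hep3B and 198 and 235 CPM in the knockout-labelled libraries, with a log2 fold change of 1.31 ± 0.34 (SE) and an adjusted p of 0.0624. With offsets for GC content and length its log2 fold change was 0.63 (adjusted p = 0.239). NDUFV2, an iron-sulfur partner of NDUFV1, was at 30.2 and 30.3 CPM against 49.5 and 74.2 CPM (log2 fold change 1.03, adjusted p = 0.133). The libraries did not overlap for either gene. NDUFS7 had a smaller log2 fold change, 0.65, and NDUFS1 and NDUFS3 one of 0.37 each, with adjusted p-values from 0.258 to 0.530. NDUFS1, which bears further iron-sulfur clusters, was at 118 and 83.9 CPM against 125 and 136 CPM.

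Several accessory subunits of complex I also stood apart. NDUFB1 was at 11.3 and 9.12 CPM in Hep3B and 27.0 and 23.8 CPM in the knockout-labelled libraries (log2 fold change 1.31, adjusted p = 0.0872). NDUFA7 was at 11.8 and 17.2 CPM against 29.3 and 38.7 CPM (log2 fold change 1.23, adjusted p = 0.105). With offsets for GC content and length NDUFB1 was at a log2 fold change of 1.21 (adjusted p = 0.0929) and NDUFA7 at 0.84 (adjusted p = 0.206). NDUFA7 overlaps RPS28, a ribosomal protein gene on the opposite strand, and whether the counting used strand is not stated. NDUFB9 was the lowest member: 167 and 257 CPM in Hep3B, 96.2 and 104 CPM in the knockout-labelled libraries. Its log2 fold change was -1.08 ± 0.37 (SE) with an adjusted p of 0.118, and it too shares ground with genes on the opposite strand, TATDN1 and MTSS1. NDUFA9 and NDUFA6 also lay below Hep3B in both libraries, at log2 fold changes of -0.33 and -0.23.

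**Figure D2:**
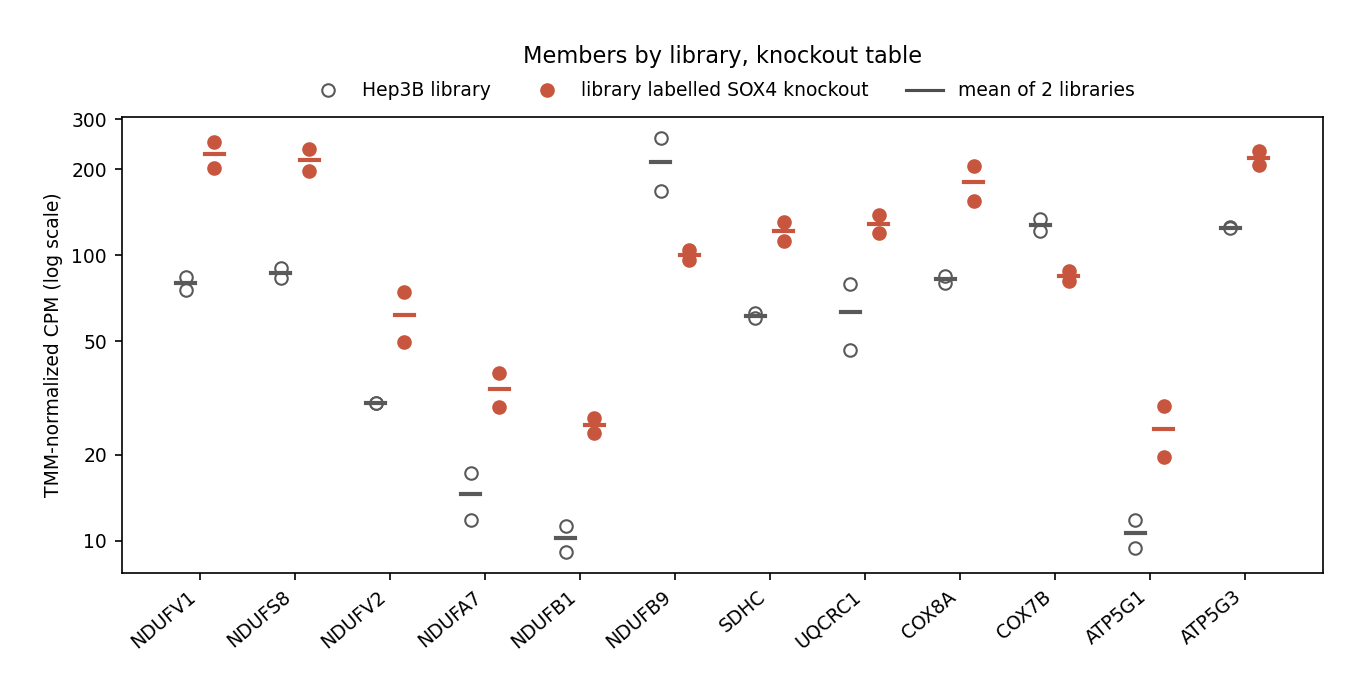
TMM-normalized CPM of 12 members in each library of the knockout table, on a log scale, with a dash for the mean of the 2 libraries. Open circles are Hep3B and filled circles are knockout-labelled libraries; the groups do not overlap for any of the 12, which were picked after their values were seen, and NDUFB9 and COX7B are the 2 with the lower knockout level.

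In complex II the 4 members did not move together. SDHC, a membrane anchor of succinate dehydrogenase, was at 62.6 and 60.3 CPM in Hep3B and 112 and 131 CPM in the knockout-labelled libraries (log2 fold change 0.98, adjusted p = 0.114). SDHD, the other anchor, was at 73.2 and 90.7 CPM against 84.0 and 71.1 CPM, and the groups overlapped. SDHA, the flavoprotein, was at 197 and 150 CPM against 224 and 216 CPM (log2 fold change 0.34, adjusted p = 0.575). SDHB, the iron-sulfur subunit, was at 43.6 and 50.1 CPM against 42.2 and 41.8 CPM (log2 fold change -0.16, adjusted p = 0.802).

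In complex III the median log2 fold change was 0.22 over 10 members. UQCRC1, a core protein of the complex, was at 79.6 and 46.6 CPM in Hep3B and 120 and 138 CPM in the knockout-labelled libraries (log2 fold change 1.03, adjusted p = 0.143). With offsets for GC content and length its log2 fold change was 0.54 (adjusted p = 0.353). The Hep3B libraries differed widely here, and without Hep3B library 1 the gene was called. UQCRFS1, the Rieske iron-sulfur protein, was at 136 and 130 CPM against 169 and 186 CPM (log2 fold change 0.42, adjusted p = 0.454). CYC1, the cytochrome c1 subunit, was at 96.9 and 73.6 CPM against 87.2 and 102 CPM, and the groups overlapped. UQCRB, which helps to form the ubiquinone site, had the lowest value in the complex, -0.32 (adjusted p = 0.612). UQCRH and UQCRHL are near-identical and share reads, so their values, -0.03 and -0.12, are uncertain.

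In complex IV the median was 0.17 over 13 members. COX8A, a small transmembrane subunit, was at 80.1 and 84.3 CPM in Hep3B and 155 and 205 CPM in the knockout-labelled libraries (log2 fold change 1.13 ± 0.34, adjusted p = 0.0909). With offsets for GC content and length its log2 fold change was 0.64 (adjusted p = 0.249). COX7B was at 134 and 121 CPM against 88.2 and 81.5 CPM (log2 fold change -0.59, adjusted p = 0.290). Neither gene's groups overlapped. COX4I1, a regulatory subunit, was at 381 and 242 CPM against 326 and 385 CPM, and COX5A at 123 and 103 CPM against 111 and 108 CPM, so that both overlapped. Paralogs that match the pattern gave no separation either: COX7A2L, which helps to join complexes III and IV, had a log2 fold change of 0.01, and NDUFA4L2, at 1.74 to 2.53 CPM, one of 0.15.

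In complex V the median was 0.23 over 18 tested members. ATP5G1, ATP5G2 and ATP5G3 encode the same mature c subunit of the rotor. ATP5G1 was at 11.8 and 9.39 CPM in Hep3B and 19.6 and 29.5 CPM in the knockout-labelled libraries (log2 fold change 1.21, adjusted p = 0.120). ATP5G3, much more abundant, was at 125 and 124 CPM against 231 and 207 CPM (log2 fold change 0.81, adjusted p = 0.175). ATP5G2 was at 110 and 57.7 CPM against 79.3 and 89.8 CPM, and these overlapped. The catalytic subunits differed little: ATP5B was at 455 and 446 CPM against 460 and 469 CPM (log2 fold change 0.05), and ATP5A1 at 357 and 250 CPM against 365 and 371 CPM (log2 fold change 0.28). ATP5O, in the peripheral stalk of the enzyme, was lowest at -0.41 (adjusted p = 0.459), with 124 and 113 CPM against 94.9 and 83.6 CPM.

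The summed level of all members was 7058 and 6589 CPM in Hep3B, which is 0.706% and 0.659% of the library, and 8001 and 8518 CPM in the knockout-labelled libraries. Per kilobase of transcript, COX4I1 was the most abundant member in all 4 conditions. NDUFB9 ranked 2 by mean level per kilobase in Hep3B and 17 in the knockout-labelled libraries, and COX8A ranked 10 and 2.

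**Figure D3:**
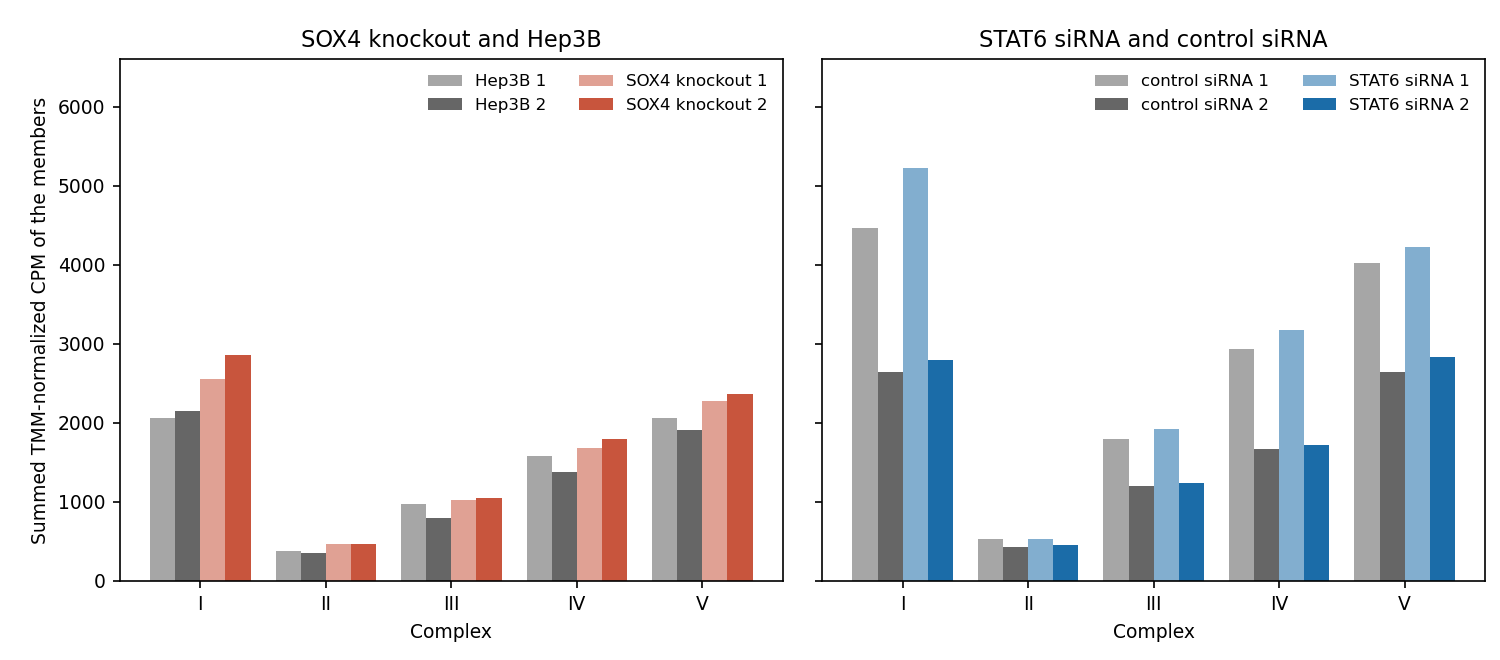
Summed TMM-normalized CPM of the members of each complex in each of the 8 libraries, as bars from 0; the 2 tables were normalized separately, so bars compare within a panel. In the knockout panel each knockout bar is above both Hep3B bars for every complex, whereas in the siRNA panel the libraries numbered 1 stand above those numbered 2 in both groups.

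Some of the members with the largest fold changes lay among genes whose fold changes had the same direction, and others did not. These members were picked after their values were seen, and no test was made. NDUFV1 and NDUFS8 lie 423.9 kb apart on chromosome 11. All 5 tested genes between them (NUDT8, ACY3, FAM86C2P, UNC93B1 and ALDH3B1) lay above Hep3B, with a median log2 fold change of 2.40, and NUDT8, UNC93B1 and ALDH3B1 were called higher. Of 41 other tested genes within 1000 kb of NDUFV1, 32 lay above 0 and 8 were called higher, with a median of 0.77. For NDUFS8 the counts were 32 of 38 and 9, with a median of 1.11, beside 4.5% of all genes called higher. The 2 windows overlap, so they are not separate observations. Both hold the 5 genes between, and NDUFV1 and NDUFS8 are each counted as a neighbour of the other. A neighbourhood median as high as that of NDUFS8 was found for 0.937% of all genes with at least 5 tested neighbours, and one as high as that of NDUFV1 for 4.8%. The neighbours of COX8A, also on chromosome 11, had a median of 0.73 and those of UQCRC1 on chromosome 3 one of 0.62. The neighbours of NDUFB1, NDUFA7, NDUFV2, SDHC and ATP5G1 had medians between -0.01 and 0.12.

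Of the 17 members with a log2 fold change below 0, 12 had neighbours with a median below 0, and SDHB, SDHD, COX5A, UQCRH and ATP5L did not. The lowest member of all and the lowest of complex IV were among the 12. Of the 62 members above 0 with enough neighbours, 33 had neighbours with a median above 0. Among the rest, ATP5C1 and NDUFA2 had log2 fold changes of 0.24 and 0.41 beside neighbours with medians of -0.88 and -0.85. The 13 tested neighbours of NDUFB9 on chromosome 8 had a median of -1.09, and 10 lay below 0; 1.05% of all genes had a median as low. All 6 tested neighbours of COX7B on the X chromosome lay below 0, with a median of -1.35 (0.396% of all genes as low). Over the 79 members with enough neighbours, Spearman's rho between the member's fold change and the neighbours' median was 0.29, and over 13134 genes it was 0.23. In the siRNA table rho was 0.57 over 80 members and 0.41 over 12164 genes. Fold changes in that table went with GC content, with Pearson's r = 0.75 over 83 members and 0.54 over 13427 genes. The part of GC content in either rho was not tested. Members and neighbours share libraries and chromosome regions. Gene copy number of these cells was not measured here.

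**Figure D4:**
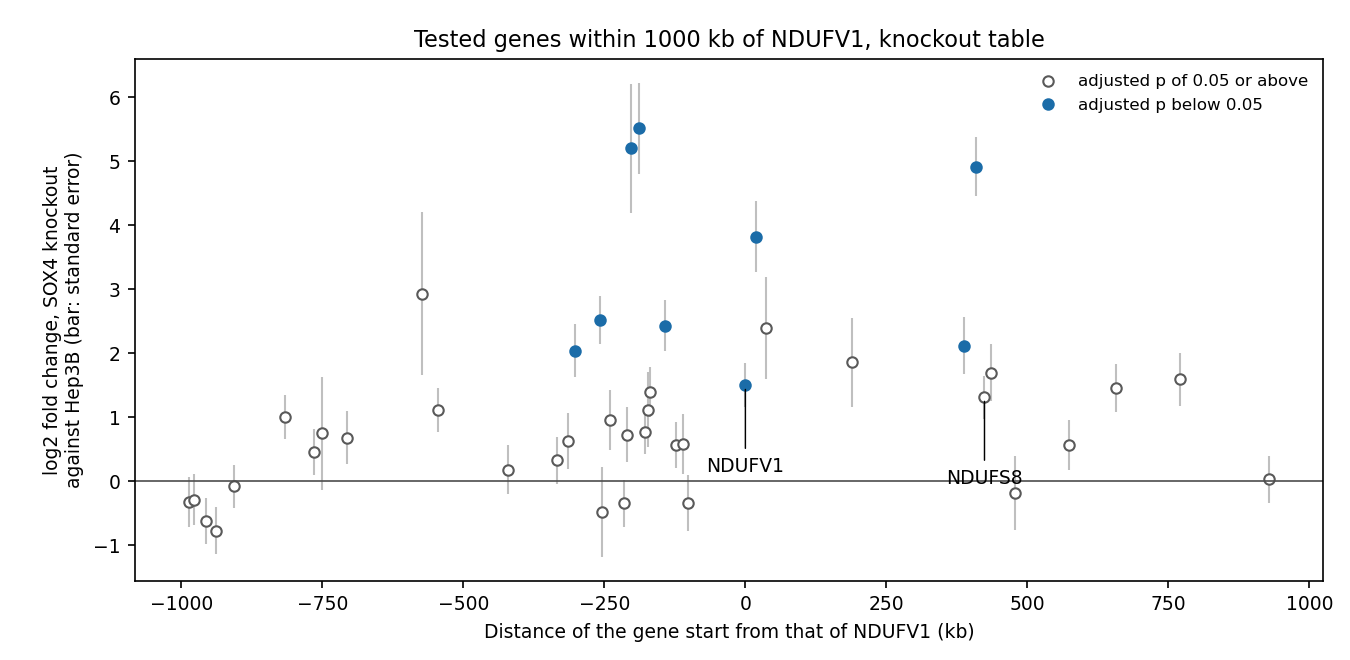
Log2 fold change, with its standard error as a bar, of every tested gene within 1000 kb of NDUFV1 against the distance of its start from that of NDUFV1 in kb, knockout-labelled libraries against Hep3B. Filled points passed an adjusted p of 0.05; the 5 genes between NDUFV1 and NDUFS8 all lie above 0.

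Genes that build the complexes and regulate mitochondrial transcription were examined beside the subunits. Of 54 assembly factors tested, 32 lay above 0 with a median log2 fold change of 0.16, and edgeR called 2, both higher, a smaller share than the 5.89% of all genes. DESeq2 called 4, these 2 with ACAD9 and TMEM70, beside 13.2% of all genes. NDUFAF3, needed to assemble the core of complex I, was at 4.31 and 7.44 CPM in Hep3B and 27.3 and 41.9 CPM in the knockout-labelled libraries (log2 fold change 2.55 ± 0.46, adjusted p = 0.0282). COA3, which stabilises newly made COX1, was at 19.2 and 18.6 CPM against 65.2 and 67.9 CPM (log2 fold change 1.82 ± 0.34, adjusted p = 0.0319). Both calls were lost without either knockout-labelled library, with adjusted p-values from 0.0932 to 0.220. With offsets for GC content and length NDUFAF3 was not called (log2 fold change 1.84, adjusted p = 0.0648) and COA3 was (1.54, adjusted p = 0.0470). TMEM70, an assembly factor of complex V, was the lowest at 33.5 and 36.2 CPM against 16.6 and 15.5 CPM (log2 fold change -1.12, adjusted p = 0.0998).

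Of 18 regulators of mitochondrial transcription and replication, edgeR called 0, with 3 at an unadjusted p-value below 0.05 (beside 26% of all genes). DESeq2 called TFAM and TWNK, beside 13.2% of all genes. The median was -0.34, and 5 lay above 0. TFAM was at 87.2 and 95.4 CPM in Hep3B and 42.8 and 41.6 CPM in the knockout-labelled libraries (log2 fold change -1.11, adjusted p = 0.0885), and TWNK, the mitochondrial helicase, at 58.3 and 84.4 CPM against 18.4 and 34.2 CPM (log2 fold change -1.44, adjusted p = 0.0895). Both knockout-labelled libraries lay below both Hep3B libraries for 7 of the 18, beside 27.4% of all genes, and above both for 0, beside 30.6%. NRF1, a transcription factor of nuclear genes for mitochondrial proteins, had a log2 fold change of -0.53, PPRC1 one of -0.94, GABPA one of -0.67, PPARGC1A one of -0.39, PPARGC1B one of 0.10 and ESRRA one of 0.48, with adjusted p-values from 0.216 to 0.935. CYCS, the gene of cytochrome c, overlapped at 427 and 524 CPM against 400 and 445 CPM. In the same libraries the summed level of the 12 hepatocyte markers was 33900 and 53900 CPM at its lowest and highest, against 13800 and 18300 CPM in Hep3B. Of the 12 markers, 9 had a log2 fold change above 0, and the lowest was -0.76. APOA1, TTR and FGB were called higher (3 of 12, beside 4.5% of all genes). The part of the marker difference in the members' values was not tested.

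With STAT6 siRNA no gene passed the test against the control siRNA in the main fit, which left out the library number. This held for the respiratory chain genes and for STAT6 itself. The summed level of the members differed more by library number than by siRNA. Among members with GC-rich transcripts the levels in the libraries numbered 1 were well above those in the libraries numbered 2, in both groups. Complexes I and V had the highest medians, and SDHD had the lowest fold change.

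By edgeR 0 of the 83 members were called, 0 had an unadjusted p-value below 0.05, and DESeq2 called 0. Over all 13554 genes the percentage called was 0, with 14 genes below 0.05 without adjustment by edgeR (0.103%), and DESeq2 gave 0 calls and 29 such genes. STAT6, the targeted gene, was among the genes not called by these fits without the library number, at a log2 fold change of -2.22. A fit with the library number as a block did call STAT6. The lack of calls without it therefore does not show a lack of differences. The median log2 fold change of the members was 0.09 against -0.03 for all genes, and 50 of 83 lay above 0 (60.2%, against 46.3%). Both STAT6 siRNA libraries lay above both control libraries for 0 members, beside 2.74% of all genes. They lay below both for 4 members (4.82%, against 5.26%), namely NDUFB3, UQCRC2, COX6C and COX7B. By complex the medians were 0.13 for I, -0.06 for II, 0.01 for III, 0.05 for IV and 0.12 for V. Leaving out single libraries moved the median of the members between -0.33 and 0.58. Each such fit leaves the library numbers unbalanced between the siRNAs. Its range thus takes in the difference between the numbers and cannot settle the sign.

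The summed level of all members was 13738 CPM in control library 1 and 15074 CPM in STAT6 library 1, and 8574 CPM in control library 2 and 9043 CPM in STAT6 library 2. Library 1 thus held 1.60 times the level of library 2 with control siRNA and 1.67 times with STAT6 siRNA, whereas the ratio of STAT6 to control siRNA was 1.10 within number 1 and 1.05 within number 2. NDUFV1 was at 214 and 118 CPM with control siRNA and 321 and 124 CPM with STAT6 siRNA (log2 fold change 0.42, SE 0.63), and the groups overlapped. ATP5A1 was at 488 and 421 CPM against 368 and 442 CPM (log2 fold change -0.17), ATP5B at 915 and 572 CPM against 1022 and 572 CPM (0.10), and COX4I1 at 532 and 335 CPM against 654 and 317 CPM (0.16). For NDUFV1, ATP5B and COX4I1 both libraries numbered 1 lay above both numbered 2, and for all 4 genes the siRNA groups overlapped.

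Within number 1 the difference between STAT6 and control siRNA had a median of 0.08 on the log2 CPM scale and ranged from -1.06 to 0.72, with 46 of 83 members higher (55.4%, against 47.4% of all genes). Within number 2 the median was 0.10 and the range -0.25 to 0.52, with 69 members higher (83.1%, against 49.2%). Higher within both numbers were 42 members (50.6%, against 29.3%), and lower within both were 10, beside 32.7% of all genes. The spread over members was 0.42 (SD) within number 1 and 0.13 within number 2, so differences of single genes were smaller in the pair numbered 2. In complex V 11 of 19 members were higher within both numbers and 0 lower within both. In complex I, 20 of 37 were higher within both, and among them were 5 of the 7 core subunits.

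The genes with the highest and lowest fold changes in each complex showed how unequal the numbers were. NDUFA3 in complex I was 0.72 higher within number 1 and 0.08 higher within number 2, at 69.8 and 37.6 CPM with control siRNA and 115 and 39.8 CPM with STAT6 siRNA. NDUFB3 in the same complex was 0.76 lower and 0.06 lower, at 43.2 and 37.9 CPM against 25.4 and 36.3 CPM. SDHA in complex II had differences of 0.21 and 0.15, and SDHD of -1.06 and -0.19, at 46.4 and 75.4 CPM against 22.3 and 66.0 CPM. CYC1 in complex III had 0.63 and 0.15 and UQCRC2, a core protein, -0.71 and -0.06. COX6B1 in complex IV had 0.42 and 0.11 and COX7B -0.63 and -0.08. ATP5D in complex V, in the central stalk, had 0.61 and 0.16 and ATP5F1, in the peripheral stalk, -0.79 and 0.08. The largest fitted log2 fold change was that of NDUFA3, 0.53 ± 0.67 (SE), in a fit without library number, whose error takes in the difference between the numbers.

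GC content of the transcripts went with the library differences. Over the 83 members, the difference of control library 2 from control library 1 had a Pearson's r of -0.70 with GC content (Spearman's rho -0.75), and the same difference for STAT6 siRNA one of -0.79 (rho -0.82). Over all 13427 genes with a GC value these were -0.73 and -0.81. The 22 members with at least 55% GC had median differences of -1.08 with control siRNA and -1.38 with STAT6 siRNA, and none was above 0. The 21 members under 45% GC had -0.33 and 0.41. Between the siRNAs, r was 0.76 within number 1 and 0.22 within number 2. After removal of a smooth trend in GC content and length the median difference was 0.12 within number 1 and 0.03 within number 2, and 31 members were higher within both (37.3%, against 30.4% of all genes). These correlations describe genes that share libraries and base composition.

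**Figure D5:**
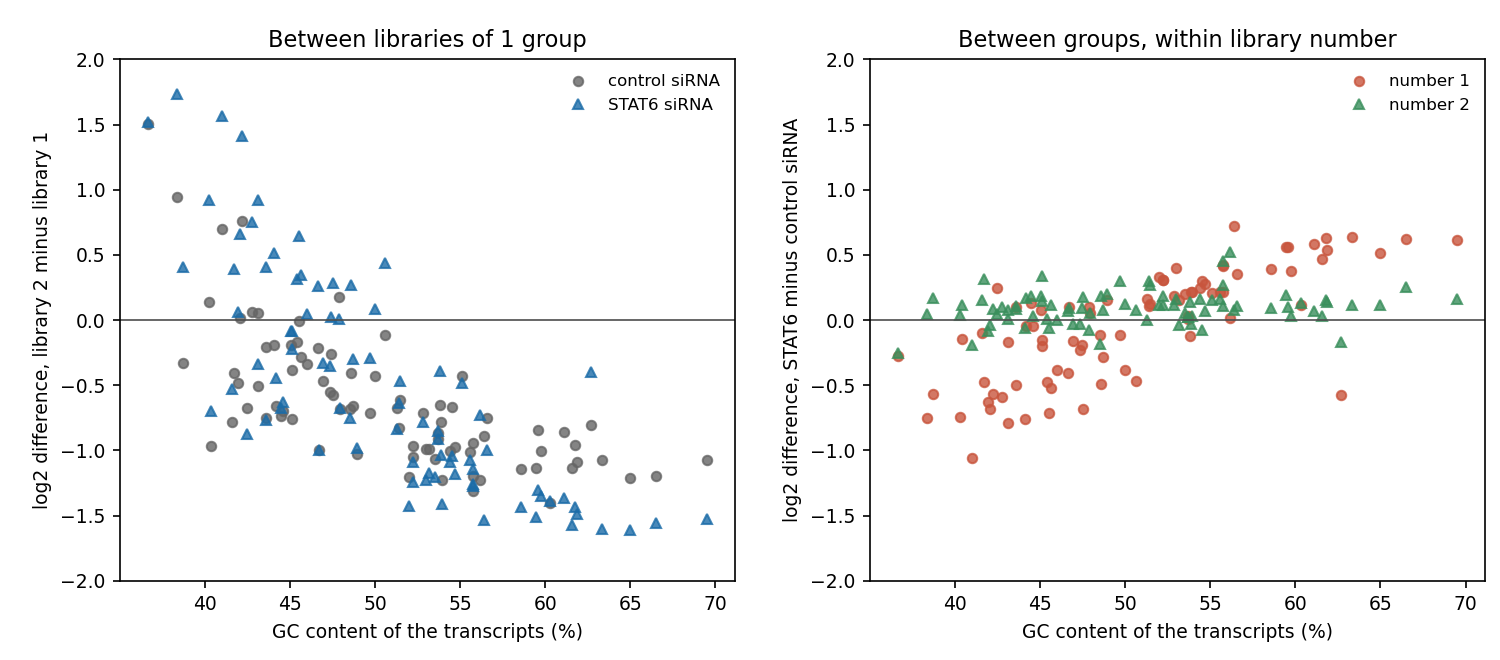
Log2 differences of the 83 members in the siRNA table against the GC content of their transcripts in percent; left, library 2 minus library 1 for each siRNA, and right, STAT6 minus control siRNA within each library number. On the left both groups fall with GC content, from medians of -0.33 (control) and 0.41 (STAT6) under 45% GC to -1.08 and -1.38 from 55% GC, and on the right number 1 rises with GC content while number 2 stays near 0.

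The companion genes gave no calls with STAT6 siRNA either: by edgeR 0 of 54 assembly factors, with a median of -0.07 and 24 above 0, and 0 of 18 regulators, with a median of -0.15 and 5 above 0. None of either list had an unadjusted p-value below 0.05, and DESeq2 called 0. TFAM was at 9.84 and 33.6 CPM with control siRNA and 8.30 and 30.4 CPM with STAT6 siRNA. NDUFAF3 was at 31.3 and 13.0 CPM against 40.3 and 17.8 CPM, and COA3 at 102 and 40.4 CPM against 132 and 50.3 CPM. Each of these 3 genes differed more by library number than by siRNA. CYCS was at 119 and 330 CPM against 84.3 and 268 CPM.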

How the data were processed

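Poly(A) RNA of 8 Hep3B libraries was sequenced after a stranded mRNA preparation. The values that the authors deposited are expected counts: estimated reads of a RefSeq transcript, often fractional, without normalization. Per the labels, the submitters' processing notes name STAR, Partek and hg38; versions and strand setting are not given in the sources used here. Transcripts were summed per gene and rounded, and each table was fitted separately with edgeR 4.0.16 under R 4.3.3 (TMM, filterByExpr, quasi-likelihood test, Benjamini-Hochberg over all genes, adjusted p below 0.05). The design set at the start assumed counts. The smallest transcript sum was 10, so rarer transcripts had been removed before deposition. Spreadsheet dates stood in for 19 gene names in each table and were separated by chromosome.

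Alternatives were DESeq2 1.42.0, median-of-ratios factors, genes with any count or with 10 or more in each library, offsets for GC content and length (mgcv 1.9.3, GENCODE transcripts), a library-number block, each library left out and, chosen after seeing the data, annotated subunits alone. Differences between single libraries are log2 CPM with a prior count of 2. Positions of the 83 members all overlapped RefSeq GRCh38.p14. The pipeline was tested on simulated data. The genes named are called members, the highest and lowest member of each complex with at least 100 counts on average per library, catalytic subunits, paralogs, regulators and the targeted genes; other members named were chosen after their values were seen. The members and lists were chosen with earlier results of these data known. No column lacked a library. Values of 1 member are not reported here by name.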

Additional observations from a re-analysis of the deposited data

How the results depend on the processing

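In the knockout comparison the members called numbered 3 with DESeq2 (NDUFV1, NDUFS8 and NDUFB1), 0 without the filter, 0 with GC content and length offsets, 0 with the replicate block and these offsets, and 0 to 3 when a library was left out (without Hep3B library 1, NDUFB9, NDUFV1 and UQCRC1). Of all genes, DESeq2 called 13.2% and the main fit 5.89%. The median log2 fold change of the members was 0.24 with median-of-ratios factors, 0.059 with the offsets, 0.067 with block and offsets, and 0.25 to 0.34 without single libraries. In the siRNA comparison 0 members were called in every fit, and leaving out single libraries gave medians from -0.33 to 0.58. The cause of these changes was not tested.

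Library numbers are not stated to mark a shared batch. Deviations of same-numbered libraries correlated at 0.87 in the siRNA table and at -0.09 in the knockout table. The replicate block raised the genes called from 0 to 62 in the siRNA table (340 with the offsets) and from 849 to 982 in the knockout table (33 with the offsets), while it called 0 members with siRNA and 1 in the knockout table. DESeq2 called 2122 genes in the knockout table, leaving out single libraries 21 to 2298.

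Signs turned for these log2 fold changes. Knockout table: COX7A2L was -0.032 with median-of-ratios factors and -0.031 with DESeq2. With offsets the values were CYC1 -0.46, COX4I1 -0.12, ATP5B -0.13, NDUFA4L2 -0.51, PPARGC1B -0.24 and ESRRA -0.14, and with block and offsets CYC1 -0.46, COX4I1 -0.096, ATP5B -0.13, NDUFA4L2 -0.52, PPARGC1B -0.25 and ESRRA -0.073. Without single libraries the ranges were COX5A -0.17 to 0.029, ATP5B -0.000428 to 0.070, UQCRHL -0.36 to 0.097, PPARGC1A -1.07 to 0.85, PPARGC1B -0.34 to 0.43, SOX4 -1.42 to 0.11, CYC1 -0.036 to 0.31, COX4I1 -0.10 to 0.50, COX7A2L -0.26 to 0.27 and NDUFA4L2 -0.17 to 0.41. siRNA table: UQCRFS1 was 0.075 and COX7A2L 0.00996 with median-of-ratios factors, and UQCRFS1 0.061 with DESeq2. ESRRA was -0.00596 without the filter, -0.00466 with at least 10 counts in every library and -0.022 with the block. With offsets the values were UQCRFS1 0.18, COX7A2L 0.12, UQCRHL 0.087, PPRC1 -0.014, ESRRA -0.27 and TFAM 0.049, and with block and offsets UQCRFS1 0.18, COX7A2L 0.088, UQCRHL 0.055, PPARGC1A 0.012, PPRC1 -0.013, ESRRA -0.28 and TFAM 0.051. Without single libraries the ranges were SDHB -0.35 to 0.12, UQCRFS1 -0.19 to 0.25, NDUFA4L2 -0.79 to 0.10, COX7A2L -0.32 to 0.25, UQCRHL -0.32 to 0.21, PPARGC1B -0.67 to 0.40, NRF1 -0.41 to 0.12, SDHA -0.077 to 0.48, COX6B1 -0.44 to 0.95, NDUFS1 -1.004 to 0.42, COX4I1 -0.45 to 0.61, COX5A -0.33 to 0.50, ATP5B -0.38 to 0.55, PPARGC1A -1.10 to 0.89, GABPA -1.76 to 0.80, ESRRA -0.44 to 0.39, TFAM -1.39 to 0.98, SOX4 -1.61 to 0.50, NDUFA3 -0.43 to 1.12, SDHD -1.46 to 0.12, CYC1 -0.41 to 1.12, ATP5D -0.48 to 1.20, ATP5F1 -0.82 to 0.11, NDUFV1 -0.42 to 0.99 and PPRC1 -0.067 to 0.32. With 2 libraries a group, and a fit that lets a lone library vary like the others, the data limit what can be seen to large differences. In the siRNA table even the lower level of STAT6 itself was not called by the main fit, which left out the library number. With the library number as a block STAT6 was called, at an adjusted p as low as 2.39e-46 (edgeR quasi-likelihood test).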
